A study of Arabidopsis thaliana with 5 samples.

Results

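The genes described here are 9 Arabidopsis loci that encode ribosome assembly and rRNA processing factors, out of 33602 loci in the deposited tables. They are the 3 loci of the PeBoW complex (AT5G14520, AT2G40360 and AT5G15550), the DEAD-box helicase gene PRH75 (AT5G62190), a further helicase gene (AT4G16630), a WD40 repeat gene that lies beside SMR1 on the chromosome (AT3G10530), and AT5G48240, AT1G25260 and AT4G12600. They were chosen with the difference between the genotypes already known, so their levels and fold changes are given as a description, without a test. RNA came from nuclei sorted out of 0.5 cm root tips of Arabidopsis thaliana seedlings grown for 5 days. All seedlings carried the reporter construct SMR1:GUS-GFP, and 120000 GFP-positive nuclei were sorted per library. The Col-0 group held 2 libraries, replicates 2 and 4, and the smr1 mutant group 3 libraries, replicates 1, 2 and 4, which the design text calls biological replicates. SMR1, also known as LGO, encodes an inhibitor of cyclin-dependent kinases that promotes endoreplication. The sort selected nuclei by activity of the SMR1 reporter and did not otherwise separate root cell types.

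Ribosomes are built in the nucleolus. RNA polymerase I makes a long precursor rRNA, which is cut, trimmed and chemically modified while ribosomal proteins and a large set of transient assembly factors bind to it. One set of factors, the small subunit processome, forms on the part of the precursor that becomes the small subunit, and other sets, PeBoW among them, act on the part that becomes the large subunit. RNA helicases of the DEAD-box family remodel the RNA at many of these steps. In plants, as in other eukaryotes, these genes are most active in growing and dividing tissue such as the root meristem.

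The promoters of plant genes for ribosomal proteins and assembly factors are known to carry short shared elements, the telo box (AAACCCTA) and the site II element (TGGGCC or TGGGCT). Both were searched on both strands in the windows from 250 bases before to 50 bases after each annotated gene start. The 150 bases before the start are shown for the 6 genes with a match to either motif in that stretch. AT2G40360 held both motifs there, AT4G12600 a telo box alone, and PES (AT5G14520), AT5G15550, AT3G10530 and AT1G25260 site II alone. The sequences were read from the RefSeq TAIR10.1 genome with its own annotation and run 5′ to 3′ on the strand of the gene. Capitals mark the matches, and a site II element on the opposite strand reads GGCCCA or AGCCCA.
PES, AT5G14520, chr5:4684473-4684622, minus strand: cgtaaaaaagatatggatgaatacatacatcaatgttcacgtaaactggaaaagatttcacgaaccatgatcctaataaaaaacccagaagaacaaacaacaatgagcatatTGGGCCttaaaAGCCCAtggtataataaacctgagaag
AT2G40360, chr2:16856772-16856921, minus strand: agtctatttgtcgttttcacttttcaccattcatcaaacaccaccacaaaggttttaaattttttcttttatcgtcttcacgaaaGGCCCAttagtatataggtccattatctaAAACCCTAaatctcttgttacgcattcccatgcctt
AT5G15550, chr5:5062145-5062294, minus strand: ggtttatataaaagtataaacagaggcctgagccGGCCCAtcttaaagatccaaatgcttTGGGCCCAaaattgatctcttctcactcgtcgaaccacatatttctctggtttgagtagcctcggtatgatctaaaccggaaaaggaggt
AT3G10530, chr3:3285682-3285831, plus strand: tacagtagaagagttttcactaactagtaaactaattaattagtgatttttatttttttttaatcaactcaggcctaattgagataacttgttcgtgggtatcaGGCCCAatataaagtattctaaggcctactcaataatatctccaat
AT1G25260, chr1:8855875-8856024, minus strand: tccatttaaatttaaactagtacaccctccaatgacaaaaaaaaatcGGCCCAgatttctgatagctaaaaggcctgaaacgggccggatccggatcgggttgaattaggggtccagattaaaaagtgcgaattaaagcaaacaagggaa
AT4G12600, chr4:7453046-7453195, plus strand: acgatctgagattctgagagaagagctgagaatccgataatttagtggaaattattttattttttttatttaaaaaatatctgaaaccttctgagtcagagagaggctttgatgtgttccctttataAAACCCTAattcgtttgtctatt

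In the whole windows, 5 of the 9 genes held a site II match, 4 held a telo box match, and 8 held at least 1 of the 2. Site II matches stood in the windows of all 3 PeBoW genes, of AT3G10530 and of AT1G25260. PES had them at -38, -27 and 21 from the start, AT2G40360 at -65 and 23, and AT5G15550 at -116, -90 and -88, where the last 2 overlap in 1 palindromic stretch. AT3G10530 had a single one at -46 and AT1G25260 a single one at -103. Telo box matches stood in AT2G40360 at -36, in PRH75 at 13, in AT5G48240 at 31, and in AT4G12600 at -216, -23 and 13. The window of the helicase gene AT4G16630 held neither motif, which says only that these letters are not in it. Of the 19335 windows of tested protein-coding loci, 25.5% held a site II match, 5.7% a telo box and 28.7% either one. Genes with ribosomal protein in their annotated product name, a list described further on that is not limited to cytosolic ribosomal proteins, had site II in 70.5% and a telo box in 41.9% of 241 windows. Either motif was found in 70.7% of 41 small subunit windows, of which 31.7% had a telo box and 63.4% site II. It was found in 67.6% of 37 large subunit windows, with 45.9% for the telo box and 48.6% for site II. The share with either was 53.8% of 13 exosome windows and 46.2% of 13 division gene windows. It was 48.5% of 33 windows of other genes named as DEAD-box or DEAD/DEAH-box helicases. Either motif stood in 2 of the 8 RNA polymerase I windows. A match is a description of the sequence, and no binding was measured.

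**Figure D1:**
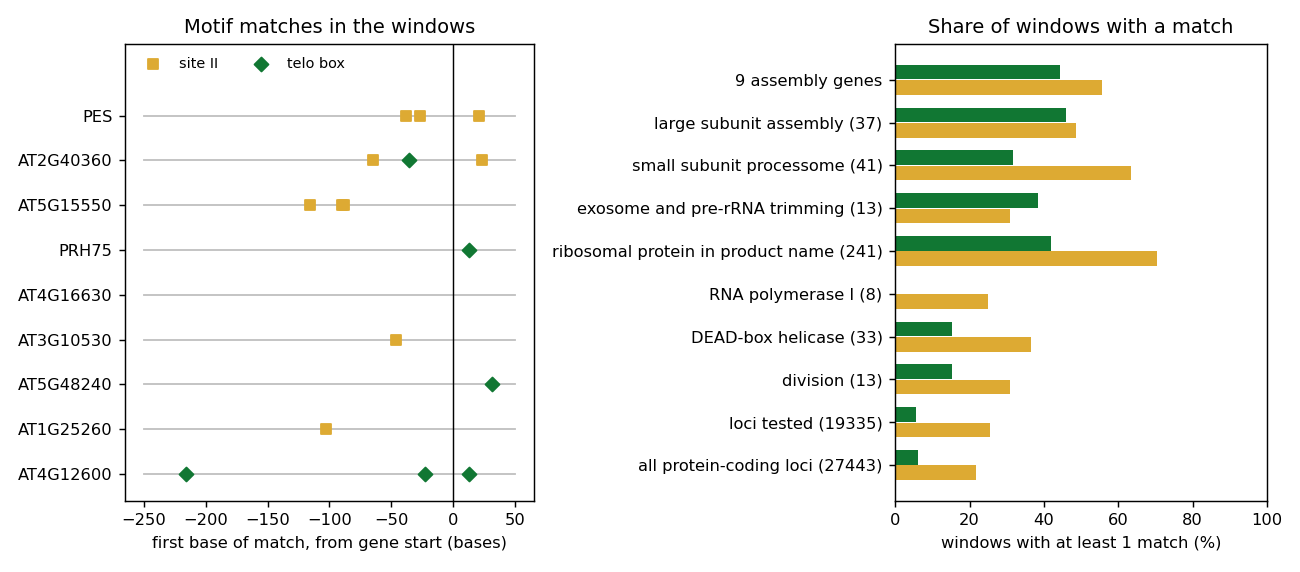
Left, the first base of each telo box and site II match from the annotated gene start in the windows of the 9 genes, in bases. Right, the percentage of windows with at least 1 match in each row, with the number of windows in brackets and the same colours as on the left. Each list of selected genes lies above the 5.7% (telo box) and 25.5% (site II) of tested loci except RNA polymerase I, with 0 and 2 of its 8 windows. All protein-coding loci had 6.2% and 21.7%.

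Library totals lay between 24918795 and 26823753 reads, and 3 reads, taken as the floor of detection, equalled between 0.112 and 0.120 CPM. CPM here means the usual depth-scaled read count, with TMM factors applied to the library totals. SMR1 itself was at 10.97 and 21.6 CPM in Col-0 against 6.02, 4.70 and 7.06 CPM in smr1, a log2 fold change of -1.46 (SE 0.31) that did not pass over all loci by edgeR (adjusted p = 0.725) and passed by DESeq2 (adjusted p = 0.0115). Over 20151 loci tested with edgeR's quasi-likelihood test, 1 passed the adjusted threshold of 0.05, which is 0.00496%, and the median log2 fold change was 0.01. DESeq2 called 0.169% of its loci higher and 0.0618% lower. The groups did not overlap, with smr1 the higher, in 13.7% of the loci tested, and with smr1 the lower in 10.1%. All 9 genes passed the filter on low counts, and in all 9 the groups did not overlap and smr1 was the higher. A log2 fold change at least as large as the smallest of the 9 was found in 3.47% of tested loci. Nothing can be read from these counts about the genes, because the same contrast chose them. Sorted nuclei were pooled per library, so fewer cells of a type and less RNA per cell cannot be told apart in any of these values.

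The PeBoW genes encode the pescadillo protein and a pair of WD40 repeat proteins that work as 1 complex in maturation of the large subunit. PES, which also has a role in cell proliferation, gave 233 and 220 reads for Col-0 (replicates 2 and 4, in that order throughout) against 363, 369 and 431 for smr1 (replicates 1, 2 and 4). Its CPM was 9.57 and 8.25 in Col-0 and 14.2, 13.7 and 15.8 in smr1. Both Col-0 libraries were low and the smr1 libraries lay within a narrow band above them. The log2 fold change was 0.71 (SE 0.15), the smallest of the 9 genes.

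AT2G40360, whose product carries the N-terminal domain of BOP1 and is annotated to rRNA processing, stood at 5.59 and 4.09 CPM in Col-0 against 8.33, 8.11 and 10.5 CPM in smr1. Replicate 4 was the lowest library within Col-0 and the highest within smr1. The mean was 4.84 ± 1.06 CPM for Col-0 and 8.98 ± 1.33 for smr1 (SD, n = 2 and 3), with a log2 fold change of 0.89 (SE 0.22). AT5G15550, the third PeBoW locus, had the lowest TPM of the complex and stood at 1.81 and 1.20 CPM in Col-0, from 44 and 32 reads. It was at 2.85, 2.41 and 3.93 CPM in smr1, from 73, 65 and 107 reads, with the same order of libraries as AT2G40360. Its log2 fold change of 1.03 (SE 0.32) had the second widest error of the 9.

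The proportions of the PeBoW transcripts were similar across libraries on the TPM scale, which is per length. The ratio of PES to AT2G40360 was 2.24 and 2.64 in Col-0 and 2.23, 2.20 and 1.97 in smr1. The ratio of PES to AT5G15550 was 3.73 and 4.84 in Col-0 and 3.51, 4.01 and 2.83 in smr1. For both ratios the highest library was Col-0 replicate 4 and the lowest smr1 replicate 4. Col-0 replicate 2 lay within the smr1 range for the second ratio and just above it for the first.

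PRH75, a DEAD-box helicase of the nucleolus, had the highest Col-0 mean TPM of the 9 genes. It was at 12.1 and 17.7 CPM in Col-0 against 29.3, 33.97 and 32.5 CPM in smr1. Here Col-0 replicate 4 was the higher Col-0 library, the reverse of the PeBoW genes, and smr1 replicate 2 was the highest of all. The mean was 14.9 ± 3.97 CPM for Col-0 and 31.9 ± 2.42 for smr1 (SD, n = 2 and 3), a 2.14-fold difference (log2 1.099, SE 0.19). Its log2 fold change was 0.84 with Col-0 replicate 2 left out and 1.39 with Col-0 replicate 4 left out. The second helicase gene, AT4G16630, annotated only by its family, had 42 and 40 reads in Col-0 against 108, 115 and 127 reads in smr1. It had 1.73 and 1.5 CPM against 4.22, 4.26 and 4.67 CPM, so both groups were tight and well apart, and the log2 fold change was 1.44 (SE 0.21). Its coding sequence shared a run of at least 25 bases with 11 other loci, the longest of 32 bases, so a small part of its reads could be divided with them.

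AT3G10530 encodes a WD40 protein with the BING4 C-terminal domain, which in yeast marks Utp7, a component of the small subunit processome. It was at 1.07 and 1.12 CPM in Col-0, from 26 and 30 reads, and at 2.97, 2.33 and 3.75 CPM in smr1, from 76, 63 and 102 reads. The Col-0 libraries were almost equal and all 3 smr1 libraries stood well above them, with a log2 fold change of 1.46 (SE 0.29). AT3G10530 is transcribed away from SMR1, on the other strand, and follows it in the annotation after AT3G10527, for which no reads were analysed here. On its far side AT3G10540 was at 47.6 and 55.7 CPM in Col-0 against 54.4, 47.0 and 56.9 CPM in smr1 (log2 fold change 0.03, SE 0.13, edgeR adjusted p = 0.973). On the other side of SMR1 the haemoglobin gene HB2 and AT3G10510 had log2 fold changes of -0.08 (SE 0.18) and -0.11 (SE 0.16), with edgeR adjusted p of 0.948 and 0.906. The transcription factor gene NAC053, the third gene on that side, was lower in smr1 without overlap and had a log2 fold change of -0.36 (SE 0.14, edgeR adjusted p = 0.725).

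The next pair are annotated to the large subunit or to a ribosomal protein family. AT5G48240 encodes an Rrp15p protein, which in yeast acts in processing of large subunit rRNA. It was at 0.99 and 1.20 CPM in Col-0, from 24 and 32 reads, and at 2.15, 2.81 and 3.38 CPM in smr1, from 55, 76 and 92 reads, with a log2 fold change of 1.34 (SE 0.29). The groups did not overlap, and replicate 4 was the highest library in each. AT1G25260 belongs to the ribosomal protein L10 family and is annotated to ribosome biogenesis. In yeast that family holds both the stalk protein P0 and the assembly factor Mrt4. The gene was at 3.86 and 3.26 CPM in Col-0 against 7.24, 6.59 and 9.23 CPM in smr1, with means of 3.56 ± 0.42 and 7.68 ± 1.38 CPM (SD, n = 2 and 3) and a log2 fold change of 1.11 (SE 0.22). As in the PeBoW genes, replicate 4 was the lower Col-0 library and the highest smr1 library.

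AT4G12600 encodes a small protein of the L7Ae/L30e/S12e/Gadd45 family, whose members bind kinked RNA in ribosomes and in small nucleolar and spliceosomal ribonucleoproteins. It had the largest difference of the 9 genes and the least even Col-0 group. Reads numbered 37 and 12 for Col-0 against 114, 93 and 116 for smr1, which is 1.52 and 0.45 CPM against 4.46, 3.44 and 4.26 CPM. The log2 fold change was 2.05 (SE 0.46), and it was 3.15 when Col-0 replicate 2 was left out and 1.40 when replicate 4 was. A pair of near copies, AT4G22380 and AT5G20160, align with 99.7% of its coding sequence at 87.0% and 83.9% identical bases, and the longest run shared exactly is 27 bases with the first and 20 bases with the second.

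Neither copy passed the test. AT4G22380 had its smr1 libraries below the Col-0 pair and AT5G20160 above it. The first had 2.01 and 1.57 CPM in Col-0 against 1.13, 1.52 and 1.47 CPM in smr1 (log2 fold change -0.38, SE 0.27, edgeR adjusted p = 0.788). The second had 4.60 and 2.74 CPM in Col-0 against 5.44, 5.37 and 5.84 CPM in smr1 (log2 fold change 0.60, SE 0.25, edgeR adjusted p = 0.725). Of the summed CPM of the 3 genes, AT4G12600 made up 18.7% and 9.45% in Col-0 and 40.4%, 33.3% and 36.8% in smr1. The sum was 8.13 and 4.76 CPM in Col-0 against 11.03, 10.3 and 11.6 CPM in smr1, so it too did not overlap, with Col-0 replicate 4 the lowest. Whether the difference of AT4G12600 exceeds that of its copies was not tested, since it was chosen for its difference.

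**Figure D2:**
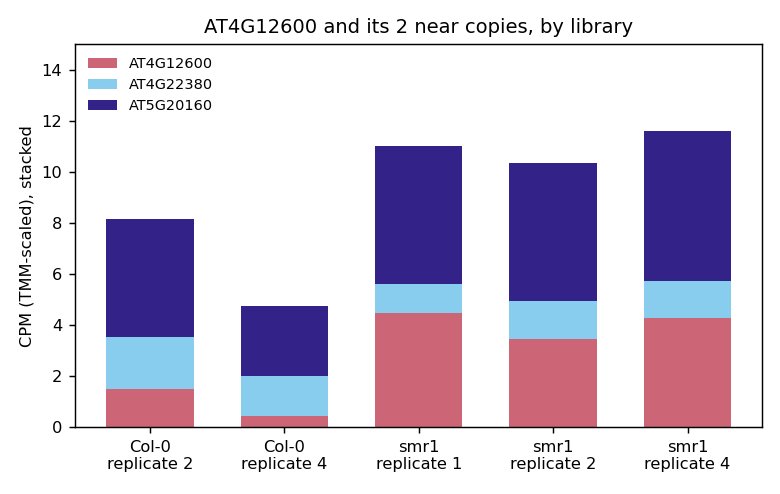
Stacked CPM of AT4G12600 and its near copies AT4G22380 and AT5G20160 in each library. The part of AT4G12600 is 18.7% and 9.45% of the sum in Col-0 and 33.3% to 40.4% in smr1.

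PES, AT2G40360, AT5G15550 and AT1G25260 shared 1 order of libraries, and the other genes each departed from it. Summed over all 9, reads numbered 930 and 1034 in Col-0 and 1935, 2096 and 2397 in smr1, and summed CPM was 38.2 and 38.8 against 75.7, 77.6 and 88.1. smr1 replicate 4 was the highest library for 7 of the 9 genes, with PRH75 highest in replicate 2 and AT4G12600 in replicate 1. Col-0 replicate 4 was the lowest library for 6, and Col-0 replicate 2 for PRH75, AT3G10530 and AT5G48240. Within replicate number 2, log2 ratios of smr1 to Col-0 ran from 0.41 for AT5G15550 to 1.51 for AT5G48240, and within number 4 from 0.88 for PRH75 to 3.25 for AT4G12600, so all were above 0. With any one library left out, all 9 log2 fold changes stayed above 0, from 0.60 for PES to 3.15 for AT4G12600.

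**Figure D3:**
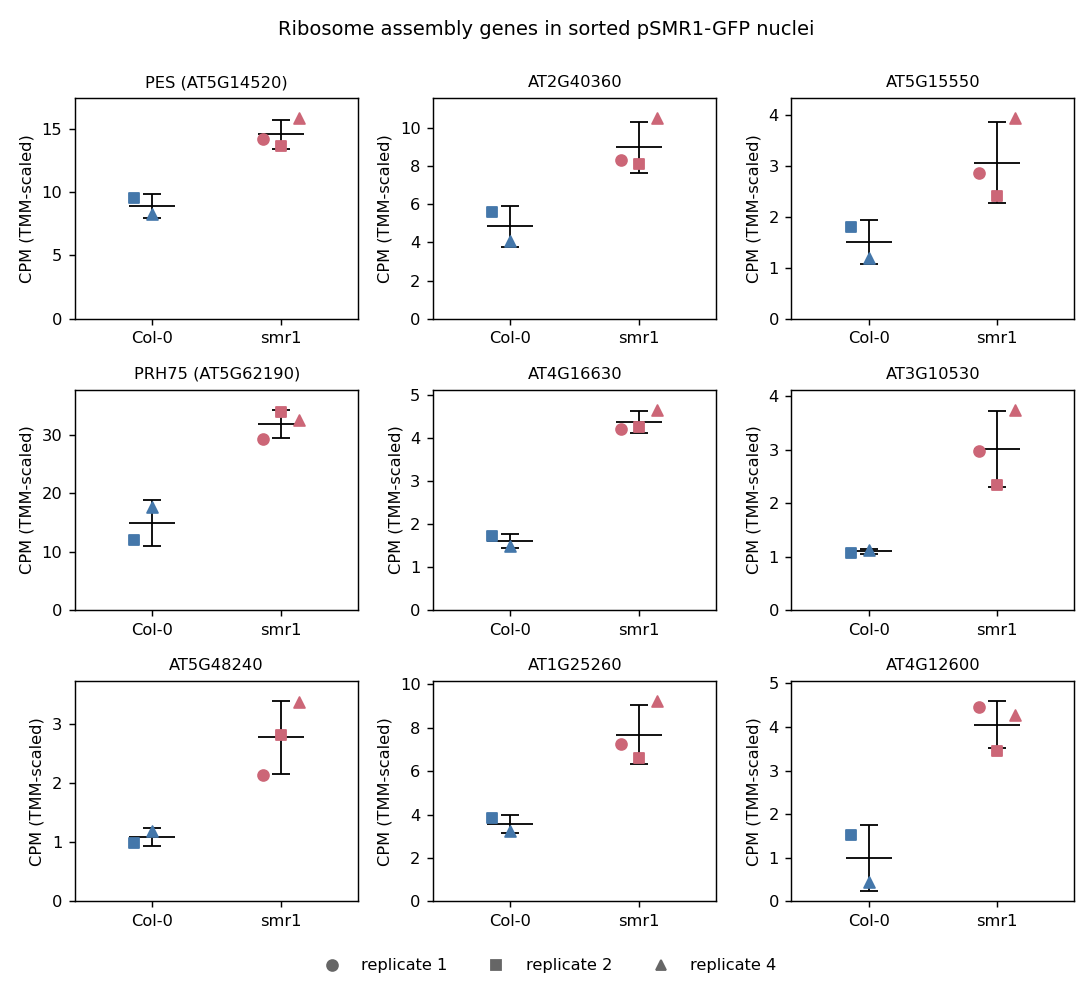
CPM of each of the 9 genes in every library; markers give the replicate number, horizontal bars the group mean and whiskers the SD (n = 2 for Col-0, n = 3 for smr1). Each axis starts at 0, and in every panel the 3 smr1 libraries lie above both Col-0 libraries.

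By abundance per length, the deposited TPM values, the genes spanned about an order of magnitude. In Col-0 the order of mean TPM ran from PRH75 at 5.12 ± 1.46 (SD, n = 2) through AT1G25260 at 4.22, PES at 3.52, AT4G12600 at 2.88, AT2G40360 at 1.46, AT5G48240 at 0.91, AT5G15550 at 0.84 and AT3G10530 at 0.48 to AT4G16630 at 0.47. Library values of neighbours in this order overlapped in Col-0 for PRH75 and AT1G25260, for PES and AT4G12600, for AT4G12600 and AT2G40360, for AT5G48240 and AT5G15550, and for AT3G10530 and AT4G16630. All 9 lay in the lower part of the range of tested loci, with between 8.8% of loci (AT4G16630) and 43.9% (PRH75) below them. In smr1 mean TPM ran from 1.32 ± 0.05 for AT4G16630 to 12.3 ± 1.72 for AT4G12600 (SD, n = 3). Nearly all reads fell on 1 transcript model per locus, and the second models with reads held 2.59% for AT5G15550 and 5.47% for AT5G48240.

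**Figure D4:**
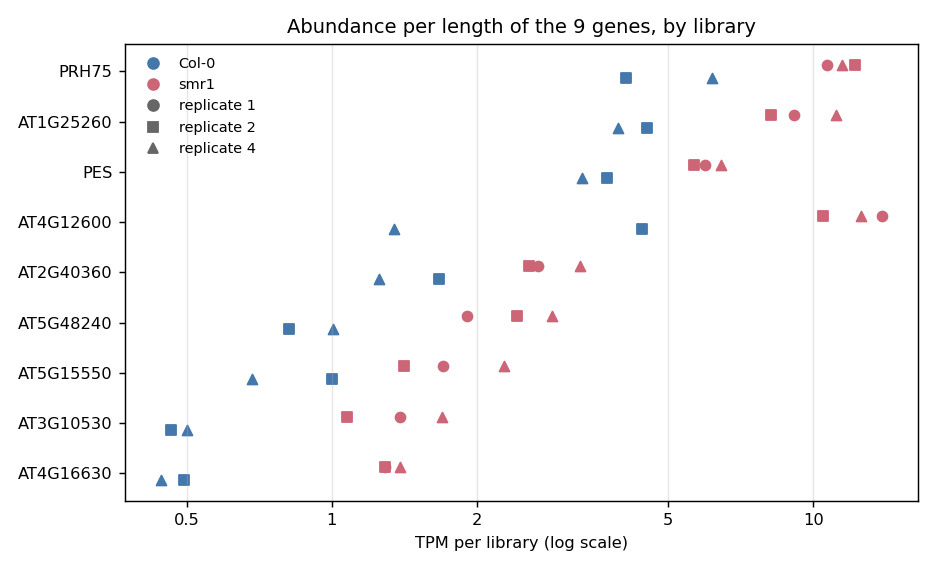
TPM of the 9 genes in each library on a log axis, ordered by mean TPM in Col-0. Markers give the replicate number and colours the genotype; Col-0 means run from 0.47 for AT4G16630 to 5.12 for PRH75.

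Genes of the pathway outside the 9 were taken from lists of known plant and yeast assembly factors and from annotated product names, and each was measured in the same fit. These lists, and the marker lists further on, were chosen with earlier results of these data known. Their counts beside the shares of all tested loci are therefore a description and no independent test of the pathway. In the small subunit processome list all 41 members were tested and none passed over all loci by edgeR. The median log2 fold change was 0.54, 37 of 41 were positive against 51.2% of all tested loci, and in 30 the groups did not overlap with smr1 the higher, against 13.7%. In 1, AT1G27470, they did not overlap with smr1 the lower, against 10.1%. At an unadjusted p under 0.05, 19 were higher and 0 lower, beside 3.96% and 2.89% of all tested loci. The same shares of all tested loci stand beside the counts of every list below. RRP5, a large scaffold of both subunits' precursors, had 2.90 ± 1.19 CPM for Col-0 and 6.88 ± 1.38 for smr1 (SD, n = 2 and 3) (log2 fold change 1.25, SE 0.31, edgeR adjusted p = 0.725). The helicase gene AT1G77030 and ENP1, for a bystin-like protein, had log2 fold changes of 0.95 (SE 0.24) and 1.00 (SE 0.29). The annotated product of AT1G77030 is a putative DEAD-box RNA helicase and names no subunit, so its place here rests on the list alone. Negative values were small, at -0.21 for the WD40 gene AT1G27470, -0.17 for AT5G61330 and -0.04 for AT4G19610.

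For the large subunit list the median was 0.66 on the log2 scale, and 32 of 37 members were positive. The groups did not overlap with smr1 the higher in 26 members and with smr1 the lower in 1. None passed by edgeR, 19 had an unadjusted p under 0.05 in the higher direction and 0 in the lower, and DESeq2 called AT4G25730 higher (adjusted p = 0.00894) and none lower. AT4G25730, an FtsJ-like methyltransferase gene, was at 1.65 ± 0.63 CPM in Col-0 against 4.75 ± 0.51 CPM in smr1 (SD, n = 2 and 3). AT3G18600 and AT1G79150 had log2 fold changes of 1.17 (SE 0.28) and 1.06 (SE 0.27). The factors with negative values included eIF6A, which keeps the subunits apart, at -0.29 (SE 0.14), the Brix domain gene AT3G15460 at -0.50 (SE 0.31), and NMD3, an export adaptor, at -0.18 (SE 0.17), each without a call by edgeR (adjusted p of 0.729, 0.757 and 0.837).

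Of the 13 genes for the exosome and rRNA trimming, all were positive, with a median of 0.57 that was 0.36 without smr1 replicate 4. With the most-read model alone 9 of 11 tested were positive and the median was 0.31, and with either Col-0 library left out 12 of 13 were positive. None passed by edgeR, and 3 had an unadjusted p under 0.05. Those 3 were genes with few reads, AT3G46210 of the S5 domain superfamily at 0.20 CPM in Col-0 against 0.70 CPM in smr1, the exoribonuclease family gene AT3G07750 at 0.25 and 0.66 CPM, and RRP4 at 0.31 and 0.72 CPM. Their Col-0 reads were 6 and 4, 5 and 8, and 7 and 9, under the filter's count of 10. They entered the test only through smr1, so the filter favoured their direction. The 7 tested genes named for RNA polymerase I had a median of 0.15 with 6 positive, and 1 had an unadjusted p under 0.05, AT4G01335 with a log2 fold change of 0.96 (SE 0.35, edgeR adjusted p = 0.725). RPAC43, a polymerase subunit gene, was at 0.36 (SE 0.28). Without Col-0 replicate 4 the median of that list was 0.42, and without Col-0 replicate 2 it was 0.14 with 4 of the 7 positive. The list rests on product names and holds mostly genes named for initiation or associated factors, so it does not stand for the whole polymerase.

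Genes with ribosomal protein in their annotated product name, leaving out those annotated to the chloroplast or mitochondrion, had a median of 0.47 over 219 tested, 205 of them positive. The name match also took in genes that are not cytosolic ribosomal proteins, among them organellar RPS9 and 12 of the 241 listed whose product names an elongation factor or a ClpS adaptor. The groups did not overlap with smr1 the higher in 139 of the 219 tested, against 13.7% of all tested loci. None passed by edgeR. At an unadjusted p under 0.05, 91 were higher and 2 lower, beside 3.96% and 2.89% of all tested loci. The 2 lower genes were AT1G17080 (log2 fold change -0.285, SE 0.11) and AT1G53560 (-0.43, SE 0.18), each with an edgeR adjusted p of 0.725. In 4 of the 219 the groups did not overlap with smr1 the lower, these 2 among them, against 10.1% of all tested loci. Some loci had equal reads in every library, as AT1G58684, AT1G58983 and AT1G59359 did, so these counts hold repeats. RPS18C, of the small subunit, was at 24.6 ± 0.39 CPM in Col-0 against 33.6 ± 1.17 CPM in smr1 (SD, n = 2 and 3). Its log2 fold change was 0.45 (SE 0.11). AT5G18790, of the L33 family, and AT5G08180, of the L7Ae/L30e/S12e/Gadd45 family, had log2 fold changes of 1.00 (SE 0.24) and 0.90 (SE 0.22). The annotation of these last genes names only a family, so neither is shown to be a cytosolic ribosomal protein. Leaving out Col-0 replicate 2 gave a median of 0.73, and leaving out Col-0 replicate 4 gave 0.26. Genes outside the lists named as DEAD-box or DEAD/DEAH-box RNA helicases were a comparison for PRH75 and AT4G16630. The name match also took in RecQl3 and FANCM, so the list is not limited to DEAD-box proteins. Its median was 0.17 over 28 tested, with 26 positive, 3 higher at an unadjusted p under 0.05 and none passing by edgeR. EMB3108 had the smallest p of that list (log2 fold change 1.86, SE 0.42, edgeR adjusted p = 0.725), at 0.23 CPM in Col-0 against 0.86 CPM in smr1, followed by STRS1 at 0.65 (SE 0.17). With 5 and 7 reads in Col-0, EMB3108 also entered the test only through its smr1 libraries. DESeq2 called 0 genes in the small subunit, exosome, polymerase I, ribosomal protein name and DEAD-box lists. It gave no adjusted p for 5 of the 13 exosome genes, 1 of the 7 polymerase I genes, 3 of the 28 helicases and 6 of the 219 ribosomal protein name genes, so these could not be called. AT3G46210, AT3G07750, RRP4, AT4G01335 and EMB3108 are among them.

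**Figure D5:**
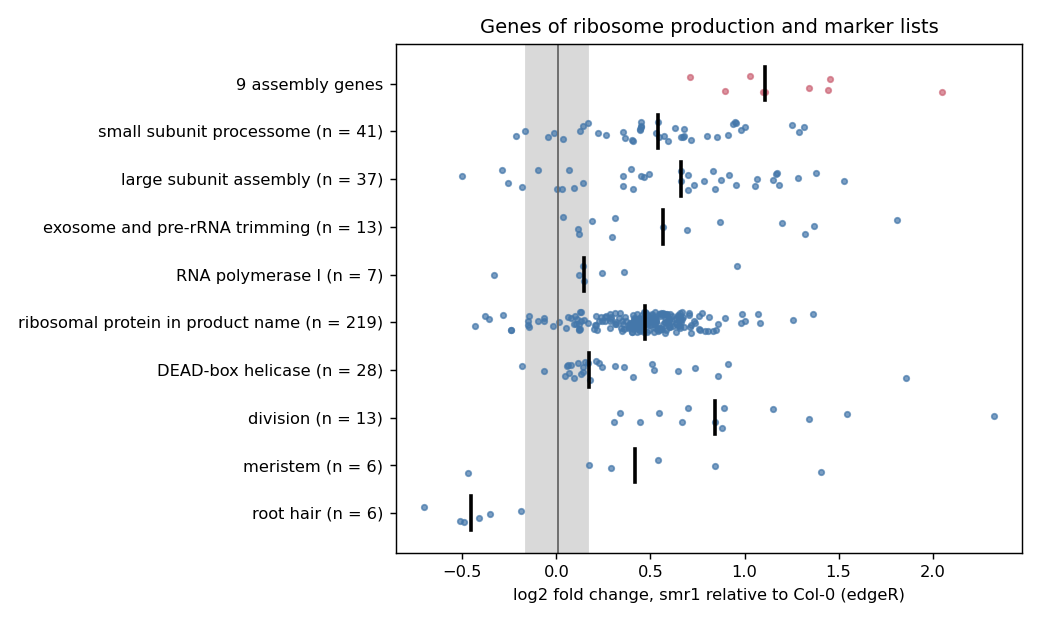
Log2 fold change of smr1 relative to Col-0 for each tested gene (points) by list, with the list median as a black bar. The grey band spans the lower to upper quartile of all tested loci, -0.16 to 0.17; the 9 genes, which were chosen for this contrast, run from 0.71 to 2.05.

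Markers of dividing cells, of the meristem and of root hairs were read in the same libraries. All 13 division genes were positive, and their median was 0.84 on the log2 scale (0.55 without smr1 replicate 4, and 12 of 13 positive without Col-0 replicate 4). None passed by edgeR, 9 had an unadjusted p under 0.05, and DESeq2 called CDKB1;1 (adjusted p = 0.00267) and TSO2 (adjusted p = 0.0201). Among those with an unadjusted p under 0.05, CDKB1;2 had 5 and 6 reads in Col-0 and entered the test only through smr1. DESeq2 gave no adjusted p for CDKB1;2. Summed CPM of the division genes was 42.6 to 52.0 in Col-0 and 73.5 to 107.5 in smr1, lowest in Col-0 replicate 4. It was highest in smr1 replicate 4, as was the sum of the 9 genes. That sum was lowest in Col-0 replicate 2, at 38.2 CPM against 38.8 CPM in replicate 4. Of the 7 meristem markers, 5 of the 6 tested were positive (median 0.42, and 1.02 without Col-0 replicate 2), 2 had an unadjusted p under 0.05 and none passed by edgeR or DESeq2. BBM, with 0 to 11 reads, was not tested. Their summed CPM was 28.5 to 30.3 in Col-0 and 34.4 to 37.7 in smr1, and WOX5 of the stem cell niche had 111 and 17 reads in Col-0 against 25, 107 and 17 reads in smr1. All 6 root hair genes were negative, 1 at an unadjusted p under 0.05 and none passing by edgeR or DESeq2, with summed CPM of 24.0 to 32.9 in Col-0 and 15.5 to 24.1 in smr1, which overlap. The root hair median of -0.45 was -0.73 without Col-0 replicate 2, -0.16 without Col-0 replicate 4, where 1 of the 6 was positive, and -0.26 without smr1 replicate 2. No marker was at 0 in every library. The part of these markers in the values of the 9 genes was not tested.

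Patterns over the 5 libraries were compared for the 12535 tested loci with a mean of at least 5 CPM over those libraries. The mitotic kinase gene CDKB1;1 was most like the mean of the 9 genes, with a Pearson r of 0.998. It was at 2.88 and 2.55 CPM in Col-0 against 6.18, 6.11 and 8.38 CPM in smr1. AT1G18560, of the BED zinc finger class, followed with 0.997, though its log2 fold change was only 0.18 (SE 0.16). After it came AT5G46840, for an RNA-binding protein, with 0.997, the L30/L7 ribosomal protein gene AT3G13580 with 0.996, and NAP57, the pseudouridine synthase of small nucleolar ribonucleoproteins, with 0.996. NAP57 was at 3.94 and 2.62 CPM in Col-0 against 10.5, 9.81 and 13.7 CPM in smr1. Between pairs of the 9 genes r ran from 0.706 for PRH75 and AT4G12600 to 0.995 for PES and AT1G25260, with a median of 0.937 over 36 pairs. CDKB1;1, AT1G18560 and NAP57 had Col-0 means of 2.71, 4.78 and 3.28 CPM and passed the 5 CPM cut only through smr1. The correlations rest on 5 libraries that differ by genotype, for which the 9 genes were chosen, and are given without a p. Genes higher in smr1 were therefore favoured at the head of this order.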

How the data were processed

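Expected counts per transcript model and TPM were deposited by the authors, per the file headers, with Salmon's usual column names. Per the submitters' processing notes, the tools and build include Salmon 0.7.2, CASAVA and TAIR10, and the strand setting is not given in the sources used here. Model lengths, also per the file headers, were multiples of 3 for 93.36% of 41671 models, so they are mostly coding lengths. Names came from RefSeq TAIR10.1, which lists 32835 of the loci, and 96.7% of 34676 models matched a RefSeq coding length.

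Expected counts were summed per locus, rounded and tested with edgeR 4.0.16 in R 4.3.3 (filterByExpr keeping loci by a count of at least 10 and a total of 15, TMM, robust quasi-likelihood F test, two-sided, Benjamini-Hochberg adjustment over 20151 loci, 3 residual degrees of freedom). SE was the log2 fold change over the square root of its F statistic. DESeq2 1.42.0, limma 3.58.1 and the other settings below were alternatives. TPM was used only for levels between genes. Near copies were found with BLAST 2.17.0 on coding sequences, since no protein table was used here, as loci with at least 60% identical bases over 80% of the member. On simulated counts for 20151 loci the edgeR fit recovered 49 of 100 loci simulated at a 2-fold change and 86 of 100 at 4-fold, and 14.01% of its calls were false. That simulation used the spread estimated for each locus and held changed loci by construction. In the measured libraries 1 locus passed, so these rates need not apply to them. The floor of 3 reads covers counting error only. The libraries are called biological replicates, and whether they were grown separately is not given in the sources used here.

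The members and lists were chosen with earlier results of these data known. Named beside the members were SMR1 and its 3 neighbours on each side, near copies, up to 3 list genes with the smallest p per direction, and the 5 loci most like the members, by Pearson correlation with the mean z score of their log2 CPM.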

Additional observations from a re-analysis of the deposited data

How the results depend on the processing

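The median log2 fold change of the 9 genes was 1.11 and lay between 1.09 and 1.18 under DESeq2, limma voom, RLE factors, library totals, no filter, a replicate block and the most-read model alone. With 1 library left out it ran from 1.09 to 1.33. All 9 genes stayed positive under each of these settings, where groups that did not overlap left little room for another sign. Library totals moved the median of all loci only to 0.07. Loci called over the whole table numbered 1 with edgeR, 41 with DESeq2, 0 with limma voom, 3 without the filter, 2 with the replicate block and 0 without any one library. DESeq2 called 1 large subunit gene, AT4G25730, and 1 gene of the SMR1 neighbourhood, SMR1 itself, where edgeR called 0. Counts of called genes in the other pathway lists and among near copies were 0 under each setting run. The labels share replicate numbers 2 and 4, but nothing says what they mark. Deviations of same-numbered libraries from their group means correlated at 0.397 and 0.185, with only 2 such pairs. The deviations of the 2 Col-0 libraries mirror each other by construction, so these values are not separate observations. Same-numbered libraries are therefore not treated as pairs. Genes with 12 to 44 reads in each Col-0 library (AT5G15550, AT4G16630, AT3G10530, AT5G48240 and AT4G12600) are limited by counting error as well as by 2 Col-0 libraries.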
